A study of Mus musculus with 3 samples.

Results

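The Iroquois homeobox genes Irx1, Irx2, Irx3, Irx4, Irx5 and Irx6 were followed in RNA-seq libraries of mouse heart ventricle. The members were the loci whose assembled transcripts carry 1 of these 6 gene names on the gene's own strand, and they made up 6 of 20117 loci with a matching RefSeq mRNA and 6 of all 48626 loci. A 7th locus carries the name Irx4 but lies on the opposite strand, and it was treated as a non-coding locus. Total RNA came from the ventricles of C57BL/6 mice at embryonic day E10.5, at day E13.5 and at 8 weeks of age (Adult), with no mutation or treatment named at any stage. Each stage was represented by 1 paired-end library made with a stranded total RNA kit, so no difference between stages could be set against a spread between animals, and no p-value is given. How many embryos or animals went into a library was not given in the sources used here.

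Iroquois proteins are transcription factors with a TALE homeodomain, a homeodomain lengthened by a short loop. In mammals their genes lie in a pair of clusters that arose by duplication of an ancestral cluster. Irx4 is known as a marker and regulator of ventricular identity, Irx3 for its part in the fast ventricular conduction system, and Irx5 for the gradient of repolarisation across the ventricular wall. Irx1, Irx2 and Irx6 have been described mainly in other organs and in restricted regions of the developing heart.

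The 2 clusters were both complete in the assembly. On chromosome 13 (mm10), Irx1 on the minus strand, Irx2 on the plus strand and Irx4 on the plus strand spanned chr13:71958232-73270128, or 1311897 bp. On chromosome 8, Irx3 on the minus strand, Irx5 on the plus strand and Irx6 on the plus strand spanned chr8:91798511-92680957, or 882447 bp. In both clusters the first gene was thus transcribed away from the next. The starts of Irx1 and Irx2 were 665255 bp apart and those of Irx2 and Irx4 631519 bp, against 556142 bp for Irx3 and Irx5 and 316271 bp for Irx5 and Irx6. No other mRNA locus lay inside either cluster (0 on each chromosome). All 23 introns of the reference Irx transcripts in the deposited annotation were also in GENCODE M21.

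The start regions of the members differed in base composition. RefSeq promoter windows of GRCm38.p6 (250 bases before the start to 50 after it) were found for 3 of the 6 genes, Irx2, Irx3 and Irx4, and not for Irx1, Irx5 and Irx6. The windows are shown because Irx4 and Irx3 are the members that kept the highest adult levels, and because the Irx2 window is shared with a divergent non-coding gene. Capitals mark CpG dinucleotides. The windows are chr13:72628570-72628869 on the plus strand for Irx2, chr8:91801605-91801904 on the minus strand for Irx3 and chr13:73260247-73260546 on the plus strand for Irx4.
Irx2: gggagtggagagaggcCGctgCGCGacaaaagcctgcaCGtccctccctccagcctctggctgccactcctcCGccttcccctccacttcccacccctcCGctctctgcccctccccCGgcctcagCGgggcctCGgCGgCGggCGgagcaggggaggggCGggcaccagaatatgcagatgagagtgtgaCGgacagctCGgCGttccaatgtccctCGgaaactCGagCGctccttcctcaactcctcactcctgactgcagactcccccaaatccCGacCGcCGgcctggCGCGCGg
Irx3: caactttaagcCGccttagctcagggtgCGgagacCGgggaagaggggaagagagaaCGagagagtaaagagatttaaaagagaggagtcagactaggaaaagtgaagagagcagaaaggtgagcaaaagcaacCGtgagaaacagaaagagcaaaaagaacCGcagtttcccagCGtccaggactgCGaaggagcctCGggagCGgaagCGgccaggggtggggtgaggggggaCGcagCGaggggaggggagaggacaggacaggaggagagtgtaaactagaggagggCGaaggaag
Irx4: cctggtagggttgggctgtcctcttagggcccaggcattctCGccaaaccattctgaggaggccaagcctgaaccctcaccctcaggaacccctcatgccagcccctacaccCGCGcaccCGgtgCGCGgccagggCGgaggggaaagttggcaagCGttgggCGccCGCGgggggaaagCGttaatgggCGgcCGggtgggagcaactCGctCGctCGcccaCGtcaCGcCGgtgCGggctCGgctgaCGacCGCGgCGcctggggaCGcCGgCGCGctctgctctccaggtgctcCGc
The Irx4 window held 31 CpG and 70.7% G or C, the Irx2 window 25 CpG and 69% and the Irx3 window 14 CpG and 56%. The median of the 32851 windows of the same length was 7 CpG and 52.7% G or C, and 89.4%, 81.6% and 63.7% of them had fewer CpG than Irx4, Irx2 and Irx3. The letters ACANNTGT of the Iroquois palindrome, AGATAA of GATA factors and AGGTGTGA of T-box factors were searched on both strands. All had 0 occurrences in each of the 3 windows. They occurred in 7.38%, 11.2% and 1.28% of all windows. The RefSeq start of Irx2 used for its window lies 158 bp before the start of the deposited Irx2 transcript.

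The values are FPKM, fragment numbers normalised for transcript length and sequencing depth, for each merged locus, so levels can be compared between genes per length. From the lowest steps of the values, 1 FPKM over 1 kb stood for about 14.04, 25.81 and 18.6 fragments in stage order, and the 95% intervals given below are Poisson intervals on these approximate fragment numbers that cover counting error only. The cardiomyocyte list (Tnnt2, Myl2, Actc1, Ryr2 and Nkx2-5) summed to 13023, 18465 and 18360 FPKM in stage order, so the labelled tissue carried its defining markers. The lung and gut list summed to at most 0.65 FPKM in any library, with Nkx2-1 and Sftpc listed at 0 in all 3. In bulk tissue, fewer cells expressing a gene and less RNA per cell cannot be told apart.

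Irx4 was the highest Iroquois gene at every stage, and only Irx4 and Irx3 were at 1 FPKM or more in the Adult library. All 6 members were at 1 FPKM or more at E10.5 and at E13.5, against 2 in the Adult. The embryonic libraries thus held RNA of both whole clusters, while the Adult library held mainly RNA of 1 gene from each.

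**Figure D1:**
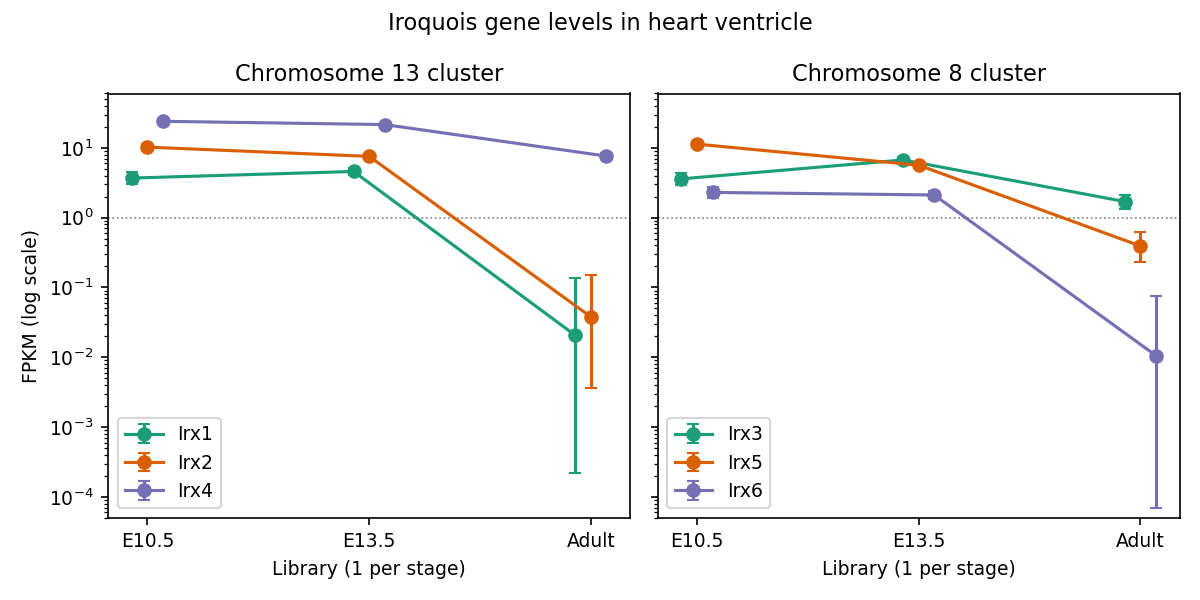
Level of each Iroquois gene in FPKM (log axis) in the 1 library of each stage, with the genes of chromosome 13 at left and of chromosome 8 at right. Bars are approximate 95% counting intervals and the dotted line is 1 FPKM. Irx4 stays above 7 FPKM in all 3 libraries, whereas Irx1, Irx2 and Irx6 drop below 0.04 FPKM in the Adult, where their bars span more than 1 decade.

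Irx4 (XLOC_011383, chr13:73259438-73270128) stood at 23.98 FPKM in the E10.5 library (22.6 to 25.4), 21.52 in that of E13.5 (20.6 to 22.5) and 7.60 in that of adults (6.93 to 8.33). These levels placed it at the 85.6th, 82.1st and 70.4th percentile of mRNA loci. The 2 embryonic libraries were close, with a ratio of 0.90 (0.83 to 0.97), and the Adult was 3.15-fold lower than E10.5 (2.83 to 3.52). From E10.5 to Adult Irx4 decreased by 68.3%, the smallest decrease among the 6 genes after that of Irx3.

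Irx3 (XLOC_043953, chr8:91798511-91801654) was the one member whose E13.5 level lay above both others beyond the counting intervals. It had 3.59 FPKM in the E10.5 library (2.98 to 4.30), 6.70 in that of E13.5 (6.07 to 7.38) and 1.70 in that of adults (1.33 to 2.13). The E13.5 level was 1.87-fold that of E10.5 (1.52 to 2.31), and the Adult level was 3.95-fold below E13.5 (3.07 to 5.10) and 2.12-fold below E10.5 (1.56 to 2.85). Irx3 moved from the 5th rank among the 6 genes at E10.5 to the 2nd rank in the Adult.

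Irx5 (XLOC_042642, chr8:92357796-92361456) was lower at each later stage. Its level was 11.29 FPKM to begin with (10.2 to 12.5), then 5.64 on day E13.5 (5.06 to 6.26) and 0.39 in adults (0.23 to 0.62). The E13.5 level was 2.003-fold below E10.5 (1.73 to 2.33) and the Adult level 28.8-fold below E10.5 (17.5 to 47.9), on about 17.5 Adult fragments. Irx5 and Irx3 therefore changed order in the cluster on chromosome 8 between E10.5 and the later libraries, although at E13.5 their intervals overlapped.

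Irx2 (XLOC_011379, chr13:72628978-72634194) had 10.23 FPKM in the E10.5 library (9.19 to 11.4), 7.54 in that of E13.5 (6.88 to 8.25) and 0.038 in that of adults (0.0036 to 0.15). Irx1 (XLOC_012466, chr13:71958232-71963723) had 3.69 (3.02 to 4.46), 4.58 (4.02 to 5.19) and 0.021 FPKM (0.00022 to 0.14) in stage order. Irx6 (XLOC_042645, chr8:92674067-92680957) had 2.30 (1.90 to 2.75), 2.11 (1.82 to 2.43) and 0.011 FPKM (6.9e-05 to 0.076). All 3 were clearly present in both embryonic libraries and at or near 0 in the Adult, where they rested on about 1.73, 0.79 and 0.70 fragments. By the FPKM as deposited the Adult level was 271-fold below E10.5 for Irx2, 180-fold for Irx1 and 218-fold for Irx6. The intervals of these ratios, taken from whole fragments with at least 1 per library, were 64.5 to 1945, 24.9 to 5654 and 27.1 to 6125, so that the size of each fall was known only within wide limits and the order of the 3 genes in the Adult could not be set.

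The order of the genes was set in part only. At E10.5 it was Irx4, then Irx5 and Irx2, then Irx1 and Irx3, then Irx6, where the intervals of Irx5 and Irx2 overlapped and likewise those of Irx1 and Irx3. At E13.5 Irx4 came first and Irx6 last, and between them the neighbours Irx2, Irx3, Irx5 and Irx1 had overlapping intervals in turn. In the Adult, Irx4, Irx3 and Irx5 followed each other with no overlap, at steps of 4.48-fold and 4.33-fold.

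On the scale of log2(FPKM + 1), on which a change means a difference of at least 1 between single libraries, none of the 6 members changed between E10.5 and E13.5 (0 higher, 0 lower). Over the 12569 mRNA loci at 1 FPKM or more in some library, 5.89% were higher and 4.85% lower at E13.5. The members' differences ran from -0.89 for Irx5 to 0.75 for Irx3, with a median of -0.12 against 0.17 over all these loci. Irx1 differed by 0.25, a direction that was lost when globin loci were left out of the scaling (-0.0014), and under that scaling Irx5 passed the limit at -1.16.

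From E13.5 to Adult all 6 members were lower by 1 or more and 0 were higher, where 32.1% of all these loci were lower and 13% higher. That balance depends on the scaling, since with factors from the median of ratios 18.6% were lower and 21.2% higher. The differences ran from -3.04 for Irx2 and -2.45 for Irx1 to -1.51 for Irx3 and -1.39 for Irx4, and their median was -1.94 against -0.50. Under these factors, which bring the median of all loci to -0.02, Irx4 differed by -0.85 and the other 5 members stayed below -1. From E10.5 to Adult 5 members were lower and 0 higher, against 27.3% and 14.8% of all loci, or 17.8% and 20.5% with the median of ratios. Irx2 (-3.44) and Irx5 (-3.14) led, and Irx3 at -0.77 was the member that stayed within the limit. The median was -1.95 against -0.40. The 3 comparisons share libraries and are not independent of each other.

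The chromosome 13 cluster carried the larger share of Iroquois RNA, and Irx4 was the larger part of it. The summed level of the 3 genes on chromosome 13 was 37.9, 33.6 and 7.66 FPKM in stage order, and that of the 3 genes on chromosome 8 was 17.2, 14.4 and 2.10. Chromosome 13 thus held 68.8%, 70.0% and 78.5% of the total, at ratios of 2.21, 2.33 and 3.65 to chromosome 8. Without Irx4 the chromosome 13 sum was 13.9, 12.1 and 0.058 FPKM, below the chromosome 8 sum in every library. With the highest gene of both clusters left out, chromosome 13 still led in the embryo, by 13.9 to 5.89 FPKM and by 12.1 to 7.74, but not in the Adult, where the sums were 0.058 and 0.40. The genes left out were Irx4 on chromosome 13, and on chromosome 8 Irx5 at E10.5 and Irx3 at the later stages.

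Within each cluster 1 gene made up most of the Adult RNA. Irx4 made up 63.3%, 64.0% and 99.2% of its cluster from the first stage to the last. Irx3 made up 20.9%, 46.4% and 80.8% of the chromosome 8 cluster, while Irx5 went from 65.7% through 39.0% to 18.7%. The 2 genes that prevailed in the Adult do not hold the same place: Irx3 is the first gene of its cluster and Irx4 the last.

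**Figure D2:**
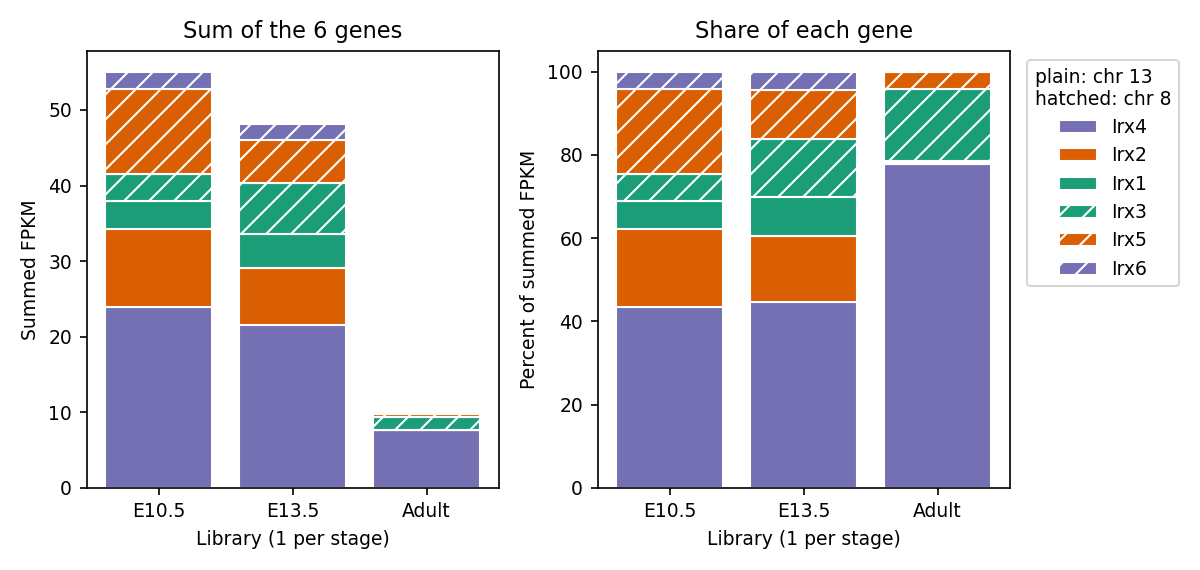
Summed FPKM of the 6 Iroquois genes in each library (left) and the share of each gene in that sum (right), stacked from Irx4 at the bottom, with chromosome 13 genes plain and chromosome 8 genes hatched. The Irx4 share is 43.6%, 44.8% and 77.9% from left to right.

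The genes at matching places in the clusters, which are taken to descend from a common gene, were set beside each other after their values had been seen. Irx1 and Irx3 were nearly equal at E10.5, where their ratio was 1.03, and then parted to 0.68 and 0.012. Irx2 and Irx5 stood at 0.91, 1.34 and 0.097. The Irx4 level was 10.45, 10.21 and 723 times that of Irx6, and the last of these is a value that rests on less than 1 Irx6 fragment. In the first 2 pairs it was the chromosome 8 gene, and in the last the chromosome 13 gene, that was higher in the Adult.

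The transcript models of Irx4 and Irx6 held more than the reference. Irx4 had 3 assembled transcripts with 3 different starts, of which 1 matched RefSeq (start at chr13 position 73260497) and 2 had a new junction. One of these began 1059 bp before the reference start and had 7 exons, and the other began 911 bp after it and had 6. Irx6 had 3 transcripts with 2 starts 335 bp apart. The values are given per locus, so the share of each start in the Irx4 level was not measured here.

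Non-coding transcripts lay inside both clusters. Loci whose transcripts matched no reference transcript, or ran antisense to an exon, numbered 16 in the chromosome 13 cluster and 10 in the chromosome 8 cluster, or 12.2 and 11.3 per Mb. Of the 26, 3 were spliced and 6 reached 1 FPKM in some library. Of the 23 unspliced loci 17 had their highest value in the Adult, which is 12 of 15 on chromosome 13 and 5 of 8 on chromosome 8. Among all 22786 unspliced unmatched loci of the series above 0 in some library, 70.2% were highest in the Adult, so the loci within the clusters were near that share.

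**Figure D3:**
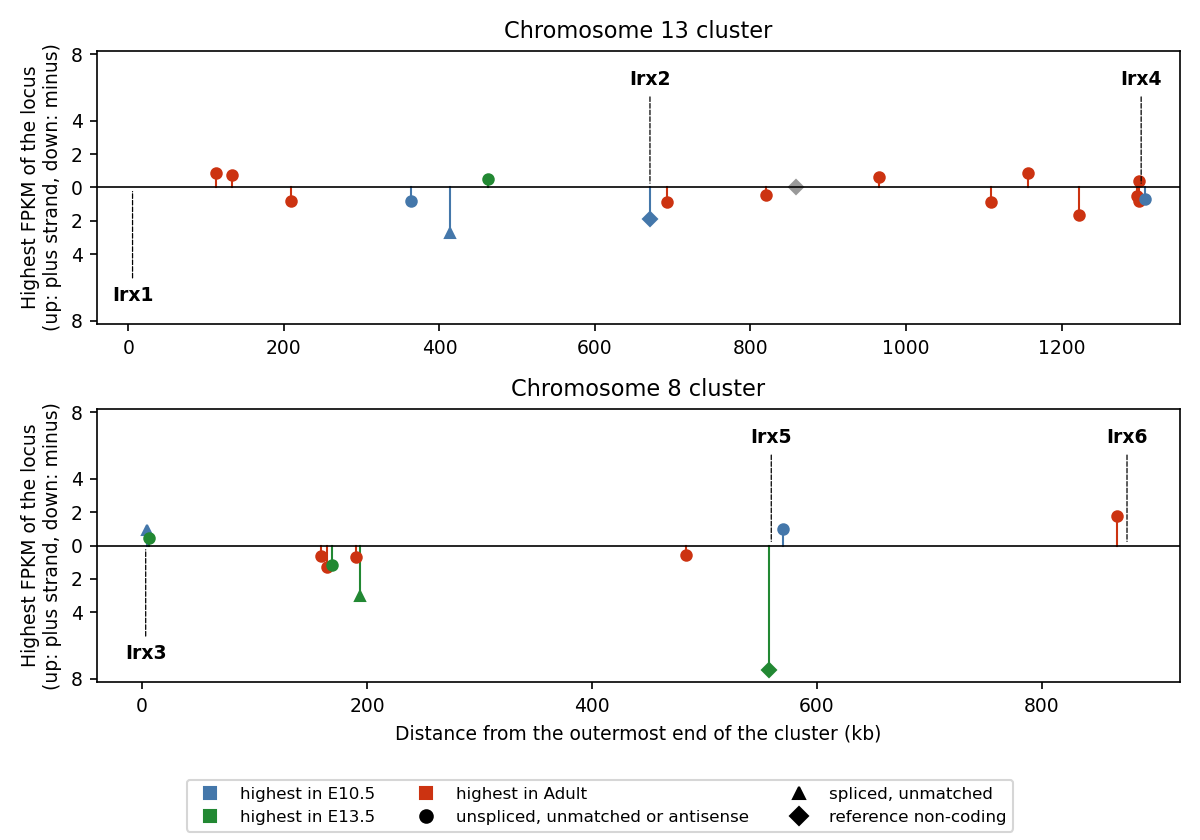
Non-coding loci inside the 2 clusters by the distance of their start from the outermost end of the cluster (kb), with height giving the highest FPKM of the locus, up for the plus and down for the minus strand, and colour the library in which it was reached. Dashed lines mark the starts of the Iroquois genes. All unspliced loci (circles) stay below 2 FPKM, and most are highest in the Adult, while the 3 spliced unmatched loci (triangles) are highest at E10.5 or E13.5 and the 2 named non-coding genes above 0 (diamonds) lie beside Irx2 and Irx5 (the grey diamond, D730050B12Rik, is listed at 0 in every library).

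The 3 spliced loci had different time courses. A minus-strand locus between Irx1 and Irx2 (XLOC_012469, chr13:72324012-72371945, 3 transcripts) began 257033 bp upstream of Irx2 and had 2.75 FPKM on day E10.5 and 1.14 on day E13.5, and was listed at 0 in adults. It rested on about 34.3 and 26.1 fragments in the embryonic libraries. Irx1 and Irx2 on either side of it were likewise present in the embryonic libraries and at or near 0 in the Adult. None of its 5 introns was in GENCODE M21, where it overlaps Gm47836 on the same strand.

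Between Irx3 and Irx5, a minus-strand locus of 3 transcripts (XLOC_043957, chr8:91987407-91991767) lay 190113 bp upstream of Irx3. It had 0.71, 3.04 and 1.77 FPKM in stage order, and it was thus highest in the library in which Irx3 was highest. Of its 4 introns 2 were in GENCODE M21, where they belong to Gm36670. A plus-strand locus of 2 exons (XLOC_042640, chr8:91803002-91803954) began 1348 bp upstream of the Irx3 start, in the opposite direction. It was at 0.92, 0.28 and 0.37 FPKM, on about 11.1, 6.16 and 5.94 fragments, and it overlaps exons of Irx3os. It was lowest in the library in which Irx3 was highest, though the E13.5 and Adult values were close.

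All 10 introns of these 3 loci began with GT and ended with AG on the strand assigned to them. The splice sites of 1 intron of each locus are shown because spliced structure separates these loci from the 23 unspliced ones. Each run reads from the last 10 exon bases into the intron for a donor, or through the last 10 intron bases into the exon for an acceptor, with the intron's end bases GT or AG in capitals. The introns are chr13:72333340-72371504 on the minus strand (38165 bp), chr8:91990503-91991538 on the minus strand (1036 bp) and chr8:91803721-91803812 on the plus strand (92 bp).
Donor upstream of Irx2: gccacaacagGTcagtgcta
Acceptor upstream of Irx2: ttgtcattAGatgcttgaca
Donor between Irx3 and Irx5: ttcttctctgGTaagtcggc
Acceptor between Irx3 and Irx5: tgtgtttcAGagataccagc
Donor divergent from Irx3: agattgcaagGTgggcgaag
Acceptor divergent from Irx3: tgtttttcAGaagggaaaga
Spliced aligners favour GT and AG ends, so that the ends are a description of these models and no independent test of them.

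The other loci at 1 FPKM or more were unspliced. XLOC_012475 (chr13:73179377-73180366), 80131 bp upstream of Irx4, was listed at 0 on day E10.5, and had 0.064 FPKM on day E13.5 and 1.64 in adults. XLOC_042644 (chr8:92664946-92665564), 9121 bp upstream of Irx6, was listed at 0, and then had 0.27 and 1.75 FPKM. These 2 loci were highest in the Adult, where every Iroquois gene was lowest. Of all unspliced unmatched loci above 0 in some library, 70.2% were likewise highest in the Adult. XLOC_043955 (chr8:91962378-91963181) was highest in the Adult at 1.28 FPKM, and XLOC_043956 (chr8:91966891-91967571) at E13.5 at 1.18 FPKM, both on the Irx3 strand and upstream of it.

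Antisense to Irx4, the unspliced locus that carries its name (XLOC_012478, chr13:73263514-73265049, 1536 nt) covered all 132 bp of exon 2 of the 6 exons of the reference transcript. It had 0.68, 0.33 and 0.62 FPKM, on about 14.7, 13.2 and 17.8 fragments. Its level thus did not follow the fall of Irx4 in the Adult. Upstream of Irx4, the plus-strand locus XLOC_011382 (chr13:73258206-73259378) ended 59 bp before the first assembled Irx4 start, and it was at 0.10 FPKM, listed at 0, and at 0.41 FPKM.

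Spliced divergent partners, which start within 3000 bp upstream of a member on the other strand, were found for Irx2, Irx5 and Irx3, and Irx4 had an unspliced one. The non-coding gene Gm20554 starts 414 bp from Irx2 in the deposited annotation. Their RefSeq windows overlap over 245 bp (chr13:72628570-72628814), and the Gm20554 window held 24 CpG. Gm20554 had 1.89, 0.71 and 0.14 FPKM in stage order, and so it was highest and lowest in the same libraries as Irx2. In the embryonic libraries this was 18.5% and 9.44% of the Irx2 level.

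The non-coding gene 4933436C20Rik, also called Crnde, starts 1676 bp from Irx5. It had 6.41, 7.49 and 1.39 FPKM in stage order, and differed by -1.64 between Adult and E10.5 on the log2 scale against -3.14 for Irx5. The partner was thus below Irx5 at E10.5, at 56.8% of its level, and above it thereafter (133% and 354%). At Irx4, the unspliced locus XLOC_012477 started 2723 bp from the reference start and was at 0.48, 0.11 and 0.85 FPKM, at most 11.1% of Irx4. At Irx3 a further unspliced locus, XLOC_042641, started 2831 bp away and stayed between 0.38 and 0.48 FPKM.

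**Figure D4:**
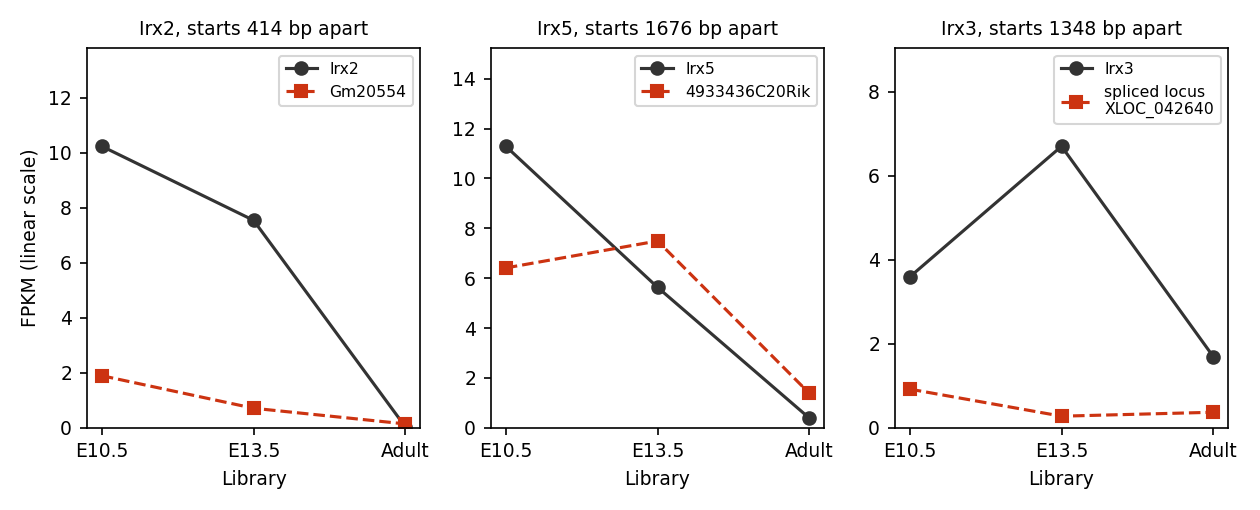
FPKM (linear axis from 0) of Irx2, Irx5 and Irx3 (circles) and of the spliced transcript that starts upstream of each in the opposite direction (squares) in the 1 library of each stage. Gm20554 stays below Irx2 in the embryonic libraries, 4933436C20Rik lies above Irx5 in the later 2 libraries, and the locus beside Irx3 stays below 1 FPKM.

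The genes flanking the clusters differed in course, and some had courses like that of a member. Next to Irx4, Ndufs6, a subunit of respiratory complex I, had 141.9, 258.7 and 442 FPKM. Mrpl36 and Lpcat1 differed by -1.04 and -1.71 between Adult and E10.5 on the log2 scale, against -1.54 for Irx4. On the far side of Irx1, 8030423J24Rik and Adamts16 stayed below 0.1 FPKM and BC018507 went from 11.4 to 13.3 FPKM. Beside Irx3, Fto, whose introns are known to hold enhancers of Irx3, was at 27.4, 13.9 and 15.2 FPKM, without the E13.5 maximum of Irx3, and Rpgrip1l and Aktip differed by -0.51 and 1.12 between Adult and E10.5. Beyond Irx6, Mmp2 had 26.3, 48.2 and 15.5 FPKM, with its maximum at E13.5 as for Irx3. Between Adult and E10.5 it differed by -0.72, against -0.77 for Irx3. Lpcat2 and Capns2 differed by 1.68 and 0.87 between the same libraries. No flanking gene was at or near 0 in the Adult after a level of 1 FPKM or more in the embryo, as Irx1, Irx2 and Irx6 were.

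The genes nearest to each member in centred log2(FPKM + 1) over the 3 libraries were taken from 12233 mRNA loci of a single name. They were Med19, Spin1 and Eif5a for Irx4, at distances of 0.0050 to 0.013, and Kifc1, Fam169a and 4930547N16Rik for Irx2, at 0.011 to 0.053. For Irx1 they were Hat1, Rplp1 and Ubtd2 (0.0061 to 0.021), and for Irx3 Pex14, Tsc22d3 and Nudt10 (0.0089 to 0.014). For Irx5 they were Tagln3, Bend4 and Kcnq5 (0.033 to 0.078), and for Irx6 Fzr1, Cnih and Cmtm3 (0.017 to 0.022). With 3 libraries many genes come this close, and on this scale genes at very different levels can have like courses. The pseudocount understates falls of low genes, so nearness did not mean a like fold change. Hat1 was at 70.5, 83.9 and 14.5 FPKM in stage order and Fzr1 at 19.9, 18.6 and 5.48. Irx1 and Irx6, to which they were nearest, were at or near 0 in the Adult. Kifc1, nearest to Irx2, did end low, at 0.080 FPKM. Among the members themselves Irx4 and Irx6 were nearest (0.17) and Irx2 and Irx3 farthest apart (1.89), while Irx2 and Irx5 stood at 0.56. The nearness of Irx4 and Irx6 holds on this scale only, since with a pseudocount of 0.1 they differed by -1.64 and -4.44 between Adult and E10.5.

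Among the other TALE homeobox genes, whose products can pair with each other on DNA, 5 of 11 measured were lower in adults than on day E10.5 and 0 were higher, with a median of -0.88 (27.3% of all loci lower). The largest falls were those of Tgif2 (10.2, 11.9 and 0.44 FPKM), Pbx3 (17.8, 16.8 and 3.06), Meis2 (24.95, 36.6 and 7.06) and Meis1 (33.7, 37.6 and 12.6). Pbx2 shares a locus with another gene and was not counted. The differences of Tgif2, Pbx3, Meis2 and Meis1 were -2.97, -2.21, -1.69 and -1.35. All lay within the range of the Iroquois genes, from -3.44 for Irx2 to -0.77 for Irx3.

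Of 10 regulators known to act with or upstream of Iroquois genes in the ventricle, 6 were lower in adults than on day E10.5 and 0 higher, with a median of -1.43. Over all loci 27.3% were lower and 14.8% higher. Hand1, a factor of the early left ventricle, went from 26.2 FPKM through 7.36 to 0.031. Nkx2-5, a cardiac homeobox factor, went from 46.8 through 61.1 to 9.38 FPKM, Gata4 from 63.6 through 43.0 to 19.5, and Hand2 from 29.9 through 42.1 to 9.12. The course of Hand1 was the one that ended at or near 0 as Irx1, Irx2 and Irx6 did.

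A list of 10 channel, connexin and chamber genes that have been tied to Iroquois factors split, with 5 higher and 4 lower in adults and a median of 0.70, where 14.8% of all loci were higher and 27.3% lower. Kcnd2, which encodes the transient outward channel Kv4.2 and is known to be repressed by Irx5, was at 1.70, 1.47 and 13.4 FPKM. It was highest in the Adult, where every Iroquois gene was lowest, and not higher at E13.5 than at E10.5. Kcnip2, the subunit that goes with Kv4.2, was at 2.74, 0.18 and 26.3 FPKM. Gja5, the connexin of the fast conduction system that is known to depend on Irx3 there, was at 36.7, 71.2 and 2.38 FPKM and had its maximum in the same library as Irx3. Cxcl12 (70.4 FPKM), Hey1 (12.3) and Hey2 (73.2) of the same list were also highest at E13.5. Gja1, the main connexin of working myocardium, was at 100.3, 107 and 233.7 FPKM. Between E10.5 and Adult, Hey2 fell by 2.79, and the difference for Bmp10, a growth factor of embryonic trabeculae, was -5.78. Kcnd2 and Gja1 were singled out after their values had been seen. Whether an Iroquois factor acted on any of these genes was not tested.

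**Figure D5:**
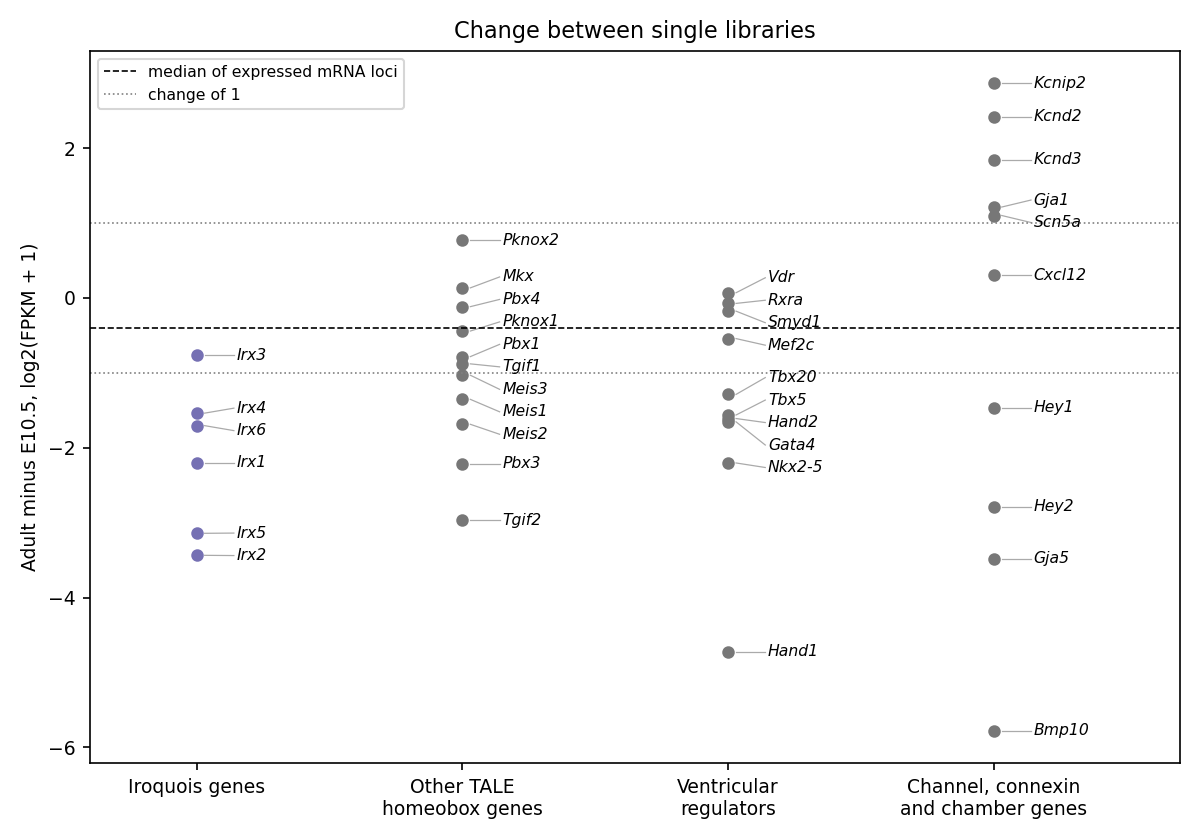
Difference between the Adult and the E10.5 library in log2(FPKM + 1) for the 6 Iroquois genes and for 3 gene lists, 1 point per gene with its name. The dashed line is the median of expressed mRNA loci (-0.40) and the dotted lines are the limits of 1 and -1. All 6 Iroquois genes lie below the median, as do most regulators, while the channel and connexin genes spread to both sides.

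Marker lists of other cells also shifted between the stages, some down and some up. The ventricular conduction list (6 genes, with Gja5 among them) summed to 50.3, 81.7 and 8.03 FPKM in stage order. The E13.5 maximum was that of Gja5, and the other 5 genes summed to 13.6, 10.6 and 5.66 FPKM. The epicardial list (6 genes) summed to 146.2, 145.3 and 19.99 FPKM, and the atrial list (7 genes) to 4248, 4353 and 51.0, mostly Myl7 and Nppa, which the embryonic ventricle also expresses. The endothelial list (6 genes) summed to 313.2, 219.5 and 208.5 FPKM. The ventricular list of 5 chamber markers had 1 gene higher (Myl3) and 2 lower (Mycn and Hey2) in adults than on day E10.5, against 14.8% and 27.3% of all loci. All 6 endothelial and all 6 epicardial genes were at 1 FPKM or more in every library. The macrophage list rose from 4.58 through 25.6 to 78.1 FPKM over 3 measured genes. The fibroblast list (5 genes) summed to 221.5, 530.5 and 485 FPKM in stage order, with medians of 25.8, 75.9 and 18.6 FPKM. From E10.5 to Adult its sum thus rose, whereas its median fell. Lists of tissues outside the heart were low but not at 0. The liver list (4 genes) summed to 6.56, 20.5 and 1.48 FPKM, with all 4 genes at 1 FPKM or more on day E13.5. The neural list (5 genes) summed to 8.86, 11.7 and 2.13 FPKM, with 1, 2 and 1 of its genes at 1 FPKM or more. Both sums were lowest in the Adult, but the neural median was lowest at E10.5 (0.053, 0.45 and 0.11 FPKM in stage order). The adipose list (4 genes) stayed at or below 0.52 FPKM. The part of such shifts in the levels of the Iroquois genes was not tested.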

How the data were processed

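RNA of heart ventricle was measured in 3 libraries, 1 each for E10.5, E13.5 and Adult, grouped by the stage in the labels. The authors mapped paired-end reads to mm10 with TopHat2 and Bowtie, assembled them with Cufflinks with and without an annotation, and deposited 1 FPKM value per merged locus and library, with the exons of the merged transcripts and their class against RefSeq. Further tool versions, and how multiply mapped reads entered the FPKM values, are not given in the sources used here.

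Values were read as deposited and compared as differences of log2(FPKM + 1) with a limit of 1, over mRNA loci at 1 FPKM or more in a library. The pseudocount understates changes of low genes. The lowest step of FPKM times length over 22805 unspliced loci gave the approximate fragments, since read counts were not used here, and it was not checked against them. Spliced loci of 2000 to 4000 nt gave a second estimate, chosen after seeing the data. Members are all Irx1 to Irx6 loci, and members and gene lists were chosen with earlier results of these data known. Named beside them were non-coding loci inside a cluster that were spliced or at 1 FPKM or more, the 3 nearest mRNA loci on each side, the 3 nearest genes by course, and at most 4 changed genes of a list. Divergent partners, the antisense locus, XLOC_011382, Kcnd2 and Gja1 were named in addition, after their values had been seen. Of RefSeq mRNA introns on chromosomes 8 and 13, 15326 of 15381 were also in GENCODE M21 (99.6%), so that mm10 coordinates could be used with GRCm38. Alternatives were another pseudocount (0.1), limit (2), filter and 2 scalings. Python 3.11.15, pandas 2.3.3, numpy 2.4.6 and scipy 1.17.1 were used.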

Additional observations from a re-analysis of the deposited data

How the results depend on the processing

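Of 114 values that answer a comparison, 75 held and 39 moved. These are counts, shares and sums, which have no sign. Of 54 single-gene differences 13 moved. No paired analysis was possible because 1 library stood for each stage, and no replicate could be left out. With 1 library per stage, a difference between stages cannot be told apart from a difference between libraries, and Adult levels of Irx1, Irx2 and Irx6 rest on under 3 fragments each, also with the second step (0.92, 2.01 and 0.82 fragments).

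The number of members lower at E13.5 than at E10.5 was 1 (Irx5) when globin loci were left out of the scaling, and 0 otherwise. With a limit of 2, 3 members were lower in the Adult than at E13.5 and 3 than at E10.5. With a pseudocount of 0.1, Irx3 passed the limit between Adult and E10.5 (-1.04).

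The share of all loci past the limit moved more. At E13.5 against E10.5 the higher and lower shares were 3.68% and 3.03% with no filter on low values, 10.2% and 7.54% with a pseudocount of 0.1, and 3.38% and 8.65% without globin loci. For Adult against E13.5 they were 8.14% and 20.03% with no filter and 21.2% and 18.6% with the median of ratios, so that the balance turned. For Adult against E10.5 they were 9.23% and 17.1% with no filter, and 20.5% and 17.8% with the median of ratios, where the balance turned as well.

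The median of ratios gave sums of 35.0, 28.3 and 9.67 FPKM for the chromosome 13 cluster and 15.8, 12.1 and 2.65 for chromosome 8 at E10.5, E13.5 and Adult. Without globin loci the chromosome 13 sums were 40.8 and 29.1 at E10.5 and E13.5, and the chromosome 8 sum was 12.5 at E13.5. Leaving out the highest gene of each cluster in each library, the sums were 13.9, 12.1 and 0.058 for chromosome 13 and 5.89, 7.74 and 0.40 for chromosome 8.

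Non-coding loci inside the clusters numbered 2 and 4 at 1 FPKM or more, and 1 and 2 when spliced, on chromosomes 13 and 8. Between Adult and E10.5, 1 other TALE gene was higher with a pseudocount of 0.1 and 1 with the median of ratios, which left 3 lower. Under that scaling 2 ventricular markers were higher in place of 1, and 2 were lower as before.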
